A study of Mus musculus with 2 samples.

Results

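The dual-specificity MAP kinase phosphatases described here are 10 genes, Dusp1, Dusp2, Dusp3, Dusp4, Dusp5, Dusp6, Dusp8, Dusp10, Dusp14 and Dusp16, out of 18194 genes named on the array. They were taken by name, with every probe set that the array's annotation gives to that gene alone, which made 16 of 45101 probe sets. RNA came from bone marrow-derived macrophages (BMDMs), which are bone marrow cells turned into macrophages by culture with M-CSF for more than a week, here from C57BL/6J females aged 8 weeks. One condition was BMDMs kept for 1 hr with the supernatant of apoptotic W3 cells. W3 is a mouse T cell line that carries the death receptor Fas, and its supernatant (RPMI with 1% FCS) was what the cells, exposed to Fas ligand for 30 min and then washed, released over a further 60 min. The other was BMDMs in control medium, given with 10% FCS by the labels. Whether the medium of this array held that serum could not be checked. Each condition has 1 array, so no difference here has a p-value, an SD or a replicate check, and precision is limited by the number of arrays. No array holds supernatant of living W3 cells, so apoptosis, serum content and W3-conditioned medium as such cannot be told apart.

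MAP kinases (ERK, JNK and p38) are switched on by phosphorylation of a threonine and a tyrosine in their activation loop, and these phosphatases remove both phosphates. Some are immediate early genes that MAP kinase signalling itself induces, so that they act as negative feedback. In macrophages Dusp1 is best known for limiting p38 and JNK activity after Toll-like receptor stimulation. The members fall into nuclear inducible enzymes (Dusp1, Dusp2, Dusp4 and Dusp5), a cytoplasmic enzyme for ERK (Dusp6), enzymes directed at JNK and p38 (Dusp8, Dusp10 and Dusp16), and small atypical enzymes without the docking domain for MAP kinases (Dusp3 and Dusp14). The array measures mRNA, not phosphatase protein or activity.

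The values are linear MAS5 signals (intensities of probe sets), brought by the authors to the same trimmed mean (500.0) on both arrays. Signals under 38.4 were treated as dim and set to that floor before ratios were taken. It is the higher of the 95th percentiles of 80 olfactory and vomeronasal receptor probe sets on each array, whose highest signal was 62.4. Where a gene has several probe sets, the one with the highest mean over both arrays was used. By that rule all 10 phosphatase genes were above the floor on both arrays, so none of their ratios is a bound. Macrophage markers were bright on both arrays, with a summed signal over 9 genes of 128586 with supernatant and 125586 with medium, and 1 of them, the engulfment receptor Mertk, was 2.23-fold higher (1050 with supernatant, 471 with medium). Of 9 T cell markers 6 were under the floor on both arrays, among them Cd3d, Cd3e, Cd3g and Thy1, while the 3 that were measured all stayed below a 2-fold difference. The T cell markers summed to 689 with supernatant and 755 with medium. Of those 3, Zap70 was 1.51-fold higher (313 with supernatant, 208 with medium) and the other 2 were lower. The 7 neutrophil markers summed to 667 with supernatant and 442 with medium. All 4 of them that were measured were higher with supernatant, and S100a9 (73.0 with supernatant, 5.85 with medium), Elane (51.8 with supernatant, 9.89 with medium) and Ngp (51.5 with supernatant, 19.9 with medium) were under the floor with medium, so that their ratios are bounds (at least 1.90-fold, 1.35-fold and 1.34-fold). The dendritic cell markers summed to 89.2 with supernatant and 104 with medium, and the B cell markers to 96.2 with supernatant and 143 with medium. Zbtb46 (23.5 with supernatant, 45.7 with medium) and Pax5 (4.49 with supernatant, 44.3 with medium) were above the floor with medium only. The part of these marker genes in the results below was not tested.

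With apoptotic supernatant, 4 of the 10 phosphatase genes reached 2-fold above medium, namely Dusp5, Dusp1, Dusp2 and Dusp14, and 0 were at least 2-fold lower. Over all 11977 named genes above the floor on at least 1 array, 0.960% reached a 2-fold difference upward and 0.843% a 2-fold difference downward. These background shares correspond to 115 and 101 genes, and the split depended on the scaling, with 160 and 67 for median-centred arrays, 145 and 74 for quantile normalized ones and 136 and 71 with loess. The median log2 ratio of the 10 genes was 0.79, and that of all measured genes was -0.02 with an SD of 0.36 between genes. Of the 10 ratios 8 were above 1 and 2 were below 1. In bulk RNA, a change in the number of cells of a type and a change in RNA per cell cannot be told apart. Without Dusp5, the gene with the highest ratio, the median of the other 9 was 0.70.

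**Figure D1:**
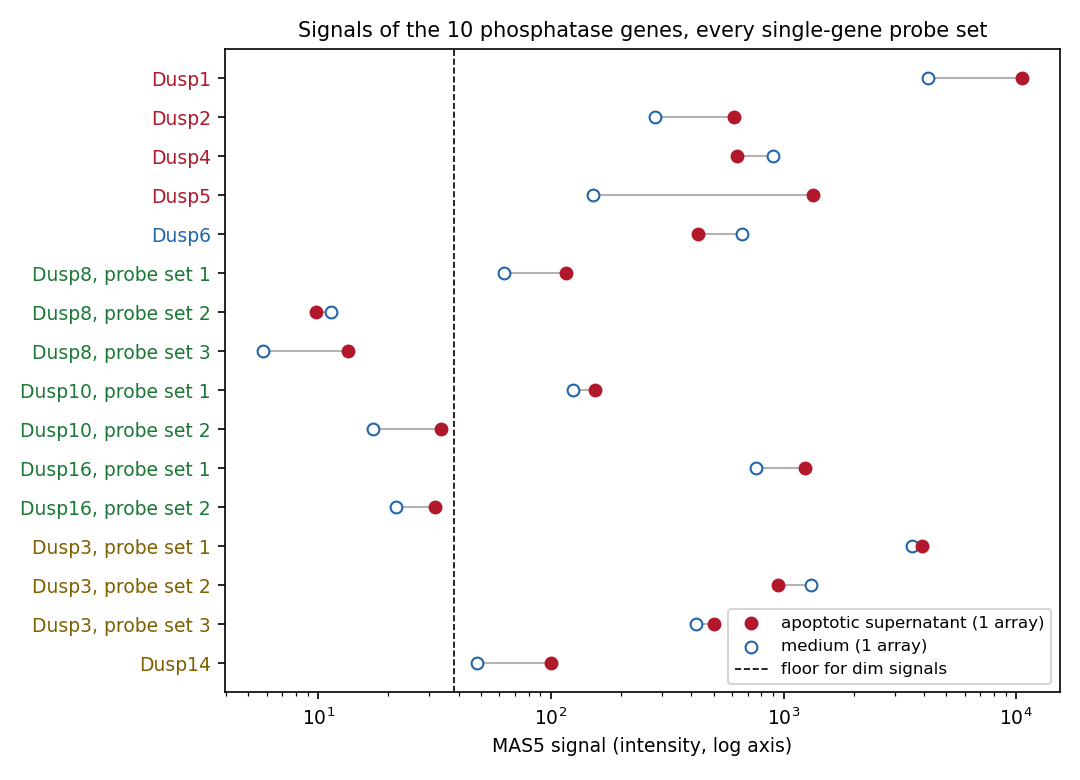
MAS5 signals (intensity, log axis) of all 16 single-gene probe sets of the 10 phosphatase genes, with apoptotic supernatant (filled red circles) and medium (open blue circles), 1 array each; the dashed line is the floor (38.4). Gene names are red for nuclear inducible, blue for cytoplasmic ERK, green for JNK and p38 directed and brown for small atypical enzymes. The widest gap is that of Dusp5 (1331 with supernatant, 152 with medium), and 4 probe sets of Dusp8, Dusp10 and Dusp16 lie left of the floor on both arrays.

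Among the nuclear inducible phosphatases, 3 were higher with supernatant and the fourth was lower. Dusp5, a nuclear phosphatase selective for ERK, had a signal of 1331 with supernatant, against 152 with medium, which was 8.75-fold higher (log2 ratio 3.13). It stood at rank 10 of all measured genes by ratio, and its log2 ratio was 1.78 above that of the next phosphatase. Dusp1, the nuclear enzyme acting on p38, JNK and ERK, had a signal of 10563 with supernatant, against 4153 with medium. It was 2.54-fold higher (log2 ratio 1.35), at rank 56, on a probe set that was already bright with medium. Dusp2, a nuclear phosphatase first described in activated T cells and found in leukocytes, had a signal of 609 with supernatant, against 280 with medium, 2.17-fold higher (log2 ratio 1.12) and at rank 85. Dusp4, a nuclear enzyme closely related to Dusp1, had a signal of 630 with supernatant, against 899 with medium, 1.43-fold lower (log2 ratio -0.51). A log2 ratio as low or lower was found in 5.75% of measured genes. Each of these 4 genes is read by a single probe set, so no second probe set bears on any of them.

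The promoters of Dusp5 and Dusp1, the members with the highest ratios, are shown because each holds a motif of a signal-regulated factor. The cAMP response element (CRE) is bound by CREB, and the CArG box is the core of the serum response element. The sequences are the 250 bases before the annotated start from RefSeq, 5′ to 3′ on the gene's strand, with CRE sites (TGACGTCA), short CREs (TGACG, either strand) and CArG boxes in capitals.
Dusp5 (GRCm38.p6, chr19:53528895-53529144, plus strand): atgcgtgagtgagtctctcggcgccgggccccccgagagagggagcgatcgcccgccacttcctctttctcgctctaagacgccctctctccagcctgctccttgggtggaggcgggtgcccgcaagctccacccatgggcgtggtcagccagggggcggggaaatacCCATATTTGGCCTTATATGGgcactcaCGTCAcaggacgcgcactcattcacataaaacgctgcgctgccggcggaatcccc
Dusp1 (GRCm38.p6, chr17:26508473-26508722, minus strand): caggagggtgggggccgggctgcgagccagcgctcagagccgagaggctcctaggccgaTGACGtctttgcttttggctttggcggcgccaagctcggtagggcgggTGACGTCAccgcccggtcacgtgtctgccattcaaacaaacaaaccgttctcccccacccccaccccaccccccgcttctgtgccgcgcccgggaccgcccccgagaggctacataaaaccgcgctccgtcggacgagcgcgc
In Dusp5, a pair of abutting CArG boxes, CCATATTTGG at -82 to -73 and CCTTATATGG at -72 to -63 from the start, precedes a short CRE at -55 to -51. In Dusp1, a full CRE lies at -143 to -136, and a further short CRE at -191 to -187.

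Dusp6, the cytoplasmic phosphatase for ERK, had a signal of 429 with supernatant, against 662 with medium, 1.54-fold lower (log2 ratio -0.63). It was the lowest of the 10 genes, and 3.86% of measured genes had a ratio as low or lower. Dusp5 and Dusp6 both act on ERK, in the nucleus and in the cytoplasm, and their ratios differed by 13.5-fold (3.75 on the log2 scale). The promoter of Dusp6, the gene with the lowest ratio, is shown for contrast, and no base of it is in capitals. Dusp14, which was 2.09-fold higher, also held no CRE, short CRE or CArG box, and neither did Dusp10 or Dusp3.
Dusp6 (GRCm38.p6, chr10:99262981-99263230, plus strand): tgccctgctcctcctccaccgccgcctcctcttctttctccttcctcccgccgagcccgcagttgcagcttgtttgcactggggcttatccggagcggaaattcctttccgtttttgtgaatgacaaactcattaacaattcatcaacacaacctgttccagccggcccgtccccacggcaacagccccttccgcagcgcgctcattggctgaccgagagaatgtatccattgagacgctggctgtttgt

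The JNK and p38 directed phosphatases all had ratios above 1, and none reached 2-fold. Dusp8, a phosphatase of JNK and p38, had a signal of 116 with supernatant, against 62.7 with medium, 1.85-fold higher (log2 ratio 0.89), with the medium signal close to the highest receptor signal. Its other 2 probe sets stayed below the floor throughout, at 13.4 and 9.74 with supernatant and 5.79 and 11.3 with medium. Dusp16, which binds JNK and shuttles between nucleus and cytoplasm, had a signal of 1241 with supernatant, against 764 with medium, 1.62-fold higher (log2 ratio 0.70). Dusp10, a phosphatase of p38 and JNK found in both compartments, had a signal of 155 with supernatant, against 124 with medium, 1.25-fold higher (log2 ratio 0.32). The second probe set of each of these genes was under the floor on both arrays, at 31.8 with supernatant and 21.5 with medium for Dusp16, and at 33.8 with supernatant and 17.2 with medium for Dusp10. The ratios of Dusp8, Dusp16 and Dusp10 were reached or passed by 1.36%, 2.59% and 9.59% of measured genes. The promoter of Dusp8 holds 2 full CREs, at -107 to -100 and at -63 to -56, and is shown for comparison with that of Dusp1.
Dusp8 (GRCm38.p6, chr7:142095285-142095534, minus strand): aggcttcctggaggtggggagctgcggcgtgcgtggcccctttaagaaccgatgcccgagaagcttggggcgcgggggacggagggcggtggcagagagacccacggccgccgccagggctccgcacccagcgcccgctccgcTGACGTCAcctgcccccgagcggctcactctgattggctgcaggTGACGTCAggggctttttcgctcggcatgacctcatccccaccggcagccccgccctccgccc

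The small atypical phosphatases differed from each other. Dusp14, a small phosphatase known from T cell signalling, had a signal of 100 with supernatant, against 48.1 with medium, 2.09-fold higher (log2 ratio 1.06). Its medium signal lay above the floor but under the highest receptor signal, and its 1 probe set carries the _a suffix, given to probe sets that read alternative transcripts of a gene. With the floor 2 times as high (76.8) Dusp14 was at least 1.31-fold higher, and with the floor added as a pseudocount it was 1.60-fold higher, so its place above 2-fold rests on a dim signal. Dusp3, a small phosphatase acting on ERK and JNK, had signals on its 3 probe sets of 3930, 950 and 503 with supernatant, against 3562, 1317 and 421 with medium. The ratios were 1.10, 0.721 and 1.20, so its probe sets did not share a direction. With the mean of all its probe sets the log2 ratio of Dusp3 was -0.02, against 0.14 on the brightest.

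**Figure D2:**
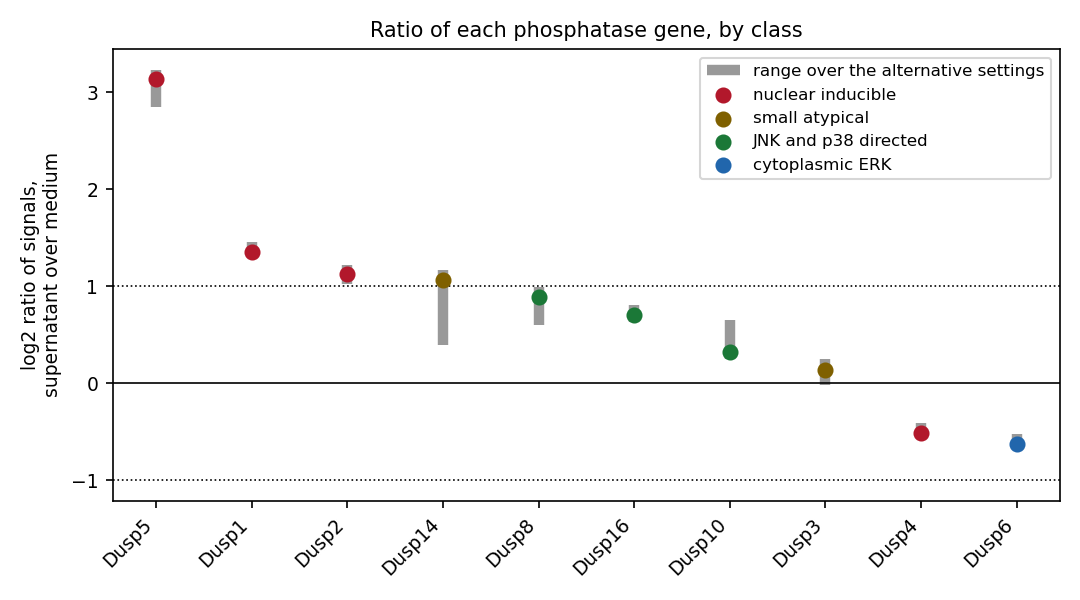
Log2 ratio of signals, supernatant over medium (1 array each), for each of the 10 phosphatase genes in order of size, coloured by class, with the range over up to 10 alternative settings of scaling, floor and probe set as a grey bar and dotted lines at a 2-fold difference. Dusp5 (3.13), Dusp1 (1.35) and Dusp2 (1.12) stay above the upper line throughout, the bar of Dusp14 crosses it, and Dusp4 (-0.51) and Dusp6 (-0.63) stay between 0 and the lower line.

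Set against the other classes, the nuclear inducible phosphatases had the higher median log2 ratio, 1.23 over 4 genes against 0.51 over the other 6, a difference of 0.72. Taken singly, the JNK and p38 directed class had a median of 0.70 and the small atypical class 0.60. The cytoplasmic class is Dusp6 alone, at -0.63. The classes overlapped. With the signals as reported, Dusp5, Dusp1 and Dusp2 were above every member outside the class, and Dusp4 was below 5 of the 6. Dusp2 (log2 ratio 1.12) was only just above Dusp14 (1.06). After quantile normalization their order was reversed, with Dusp14 at 1.17 and Dusp2 at 1.14. The ratios of Dusp1 and Dusp4, both nuclear, differed by 3.63-fold. With the probe sets that carry a suffix left out, which removes Dusp14 and Dusp16 from the comparison, the difference between the medians was 1.00. With 1 array per condition the difference between classes has no test.

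At a threshold of 1.5-fold, added after the values were seen, 6 of the 10 genes were higher (Dusp8 and Dusp16 beside the 4 named above) and 1, Dusp6, was lower. Among all measured genes 3.71% passed that threshold upward and 4.47% downward. Of the 12 probe sets of the 10 genes above the floor, 9 had a ratio above 1 and 4 were at least 2-fold higher. Among all 26487 such probe sets on the array 1.04% were 2-fold higher, and the share with a ratio above 1 was not counted. In the order of ratios, over this 1 comparison, the 2 genes next above Dusp5 were Ptgs2, the inducible cyclooxygenase (9.10-fold, 1486 with supernatant and 163 with medium), and the zinc finger factor Egr2 (12.2-fold, 1706 with supernatant and 140 with medium). The 2 next below were the AP-1 subunit Fosb, which was under the floor with medium (at least 7.95-fold, 305 with supernatant and 35.6 with medium), and Gm6377 (7.62-fold, 3297 with supernatant and 432 with medium).

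**Figure D3:**
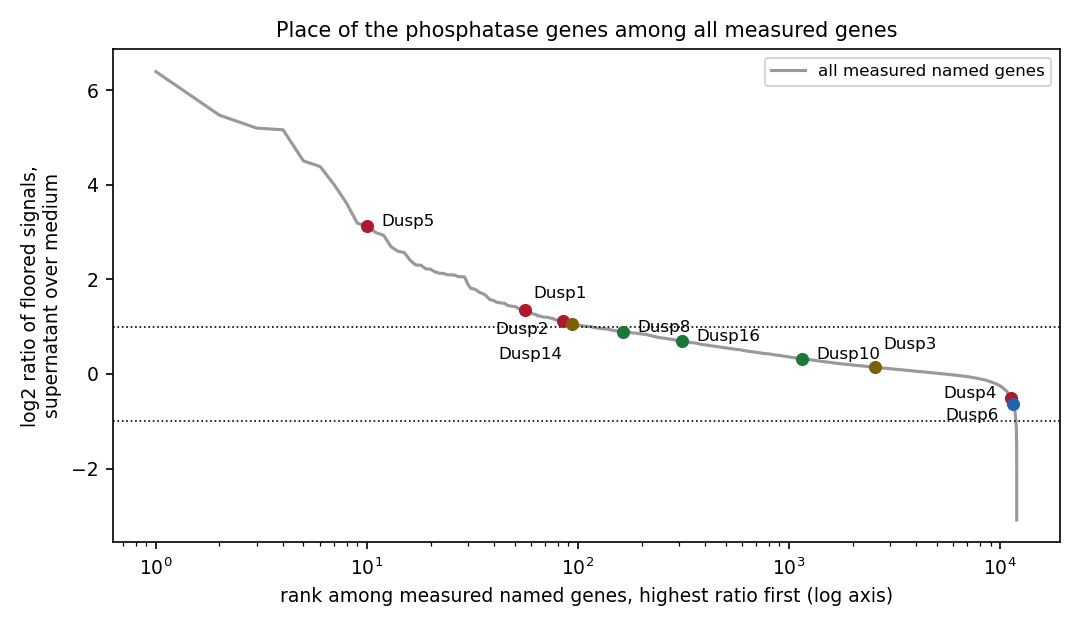
Floored log2 ratio (supernatant over medium) of all 11977 measured named genes in order of size (grey line, rank on a log axis), with the 10 phosphatase genes marked by class colour and dotted lines at a 2-fold difference. Dusp5 lies at rank 10, Dusp1 at 56, Dusp2 at 85 and Dusp14 at 94, while Dusp4 and Dusp6 lie near the right end.

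The promoter windows searched for motifs run from 250 bases before to 50 bases after the start, and 9 of the 10 genes were matched to one by symbol, all but Dusp4. Of 32851 windows of that length in the RefSeq table, 1.79% held a full CRE and 20.8% a short CRE, which includes those within full sites. Full CREs were found in Dusp1 and Dusp8 (2 of 9) and short CREs in Dusp1, Dusp2, Dusp5, Dusp8 and Dusp16 (5 of 9). That of Dusp2 lies after the start, at 6 to 10. The 5 genes with a short CRE had log2 ratios between 0.70 and 3.13, and the 4 without had ratios between -0.63 and 1.06, so the sets overlapped at Dusp14. This split was looked at after the ratios were known and has no test. Over all measured genes with a window, 1.20% of 3424 genes with a short CRE and 0.759% of 6323 without one were at least 2-fold higher. Dusp1, Dusp2 and Dusp5 are counted in the first share and Dusp14 in the second.

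CArG boxes were in 1.63% of windows and, among these 9, in Dusp5 alone. Over all measured genes, 5 of 151 with a CArG box were at least 2-fold higher (3.31%, Dusp5 included), and 0.875% of 9596 without. The Egr site GCGGGGGCG was in Dusp2, at -98 to -90, and in 2.91% of windows, and the E-box CACGTG was in Dusp1 and Dusp2 and in 7.15% of windows. No match was found in the 9 windows for TGANTCA (AP-1, 7.81% of windows), AAAGGTCA (the Nr4a site, 1.51%), GCGTGGGCG (the other Egr form, 0.612%) or the NF-kB site (8.46%). For these motifs too, the share of measured genes at least 2-fold higher was compared. It was 1.59% with the AP-1 motif and 0.867% without, and 1.86% with the NF-kB site and 0.783% without. With the Nr4a site it was 0.909% (1 of 110 genes), against 0.913% without. With the other Egr form it was 0% (0 of 140 genes), against 0.926% without. The AP-1 and NF-kB motifs, found in none of the 9 windows, thus also went with a higher share. With a full CRE the share was 1.74%, against 0.883% without. It was 1.31% with the E-box and 0.860% without, and 1.17% with GCGGGGGCG and 0.896% without. Phosphatase genes with these motifs are counted in the shares, and no difference between shares was tested. Both strands were searched. Dusp6, Dusp10, Dusp3 and Dusp14 held none of the 9 motifs. The G and C content of the 9 windows ranged from 57.3% to 73.3%, against a median of 52.7% over all windows. A match gives letters in a short window and no binding was measured.

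**Figure D4:**
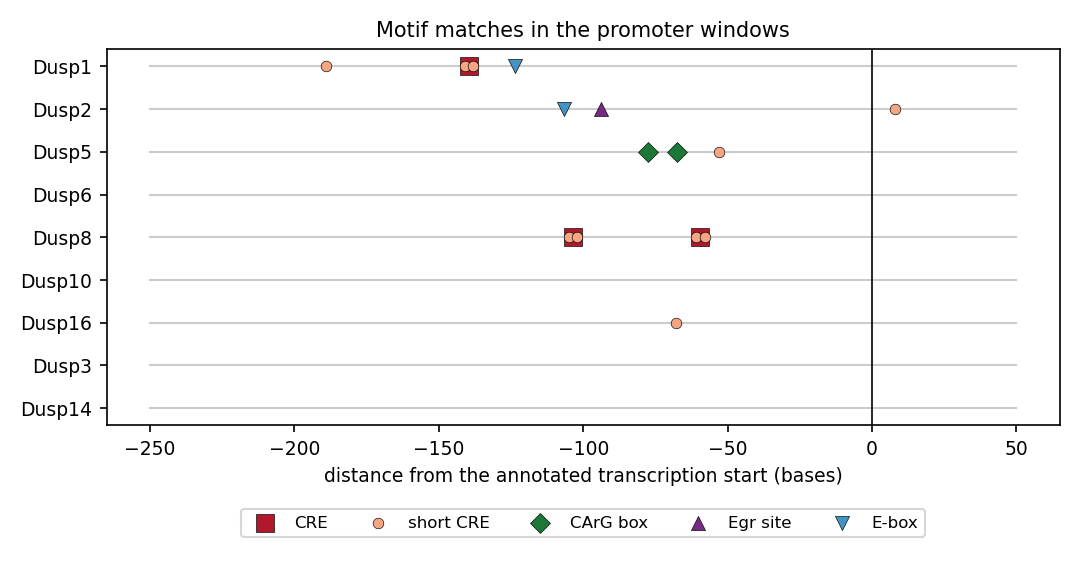
Position of motif matches in the promoter windows of 9 phosphatase genes, as distance in bases from the annotated transcription start (vertical line), with 1 symbol per match. CREs (squares, each with overlapping short CREs as small circles) are in Dusp1 and Dusp8, the paired CArG boxes (diamonds) in Dusp5, and 4 genes have no match.

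In the rest of the MAP kinase pathway few genes reached 2-fold. Over 5 lists of pathway genes together, 2 of 69 measured genes (2.90%) were 2-fold higher or more and 1 was 2-fold lower or more. Among all measured genes the shares were 0.960% upward and 0.843% downward, so the upward share of the lists was not below that of the array. The median log2 ratio of the 69 genes was 0.06. Among 20 other dual-specificity phosphatases 1 was 2-fold higher, Dusp18 (149 with supernatant, 73.3 with medium, 2.04-fold), whose second probe set went the other way (25.4 with supernatant, 80.9 with medium). Their median log2 ratio was 0.03. Of 7 measured MAP kinases 1 was 2-fold higher, Mapk11, which encodes p38 beta (139 with supernatant, 59.8 with medium, 2.32-fold), and the median was -0.01. Mapk14, the main p38 kinase of macrophages, had signals of 3484 with supernatant and 3510 with medium, a ratio of 0.992. Mapk8, which encodes JNK1, had 226 with supernatant and 280 with medium on its brightest probe set, a ratio of 0.807, with ratios from 1.00 to 1.37 on 3 others above the floor.

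Of 18 kinases upstream of the MAP kinases 0 were 2-fold higher and 1 was 2-fold lower, Ksr1, a scaffold of the ERK cascade (60.3 with supernatant, 152 with medium, 2.52-fold lower). Their median log2 ratio was 0.10. Of 6 other phosphatases that act on MAP kinases none had a floored ratio of 2-fold or more either way, and the median was -0.03. Ptpn5 among them (35.1 with supernatant, 38.6 with medium) and Epm2a of the dual-specificity list (29.3 with supernatant, 49.7 with medium) were under the floor with supernatant, so that their ratios are bounds. Of 18 kinases and transcription factors downstream, again none, with a median of 0.09. The highest of these was Ets2, an ETS factor phosphorylated by ERK (4180 with supernatant, 2546 with medium, 1.64-fold), and the lowest Jun, the AP-1 subunit phosphorylated by JNK (1144 with supernatant, 2206 with medium, 1.93-fold lower). Ets2 and Jun were named after their values were seen. Dusp18, Mapk11 and Ksr1 are dim, and none of the 3 reached 2-fold with the floor 2 times as high.

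**Figure D5:**
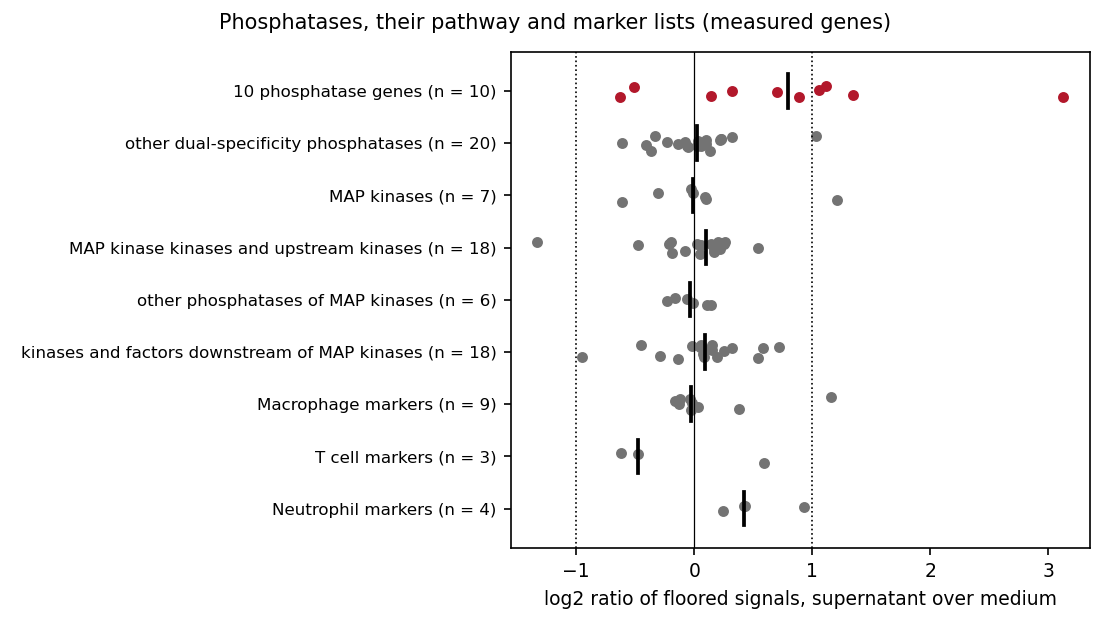
Floored log2 ratio (supernatant over medium, 1 array each) for the 10 phosphatase genes (red) and for the measured genes of 5 pathway lists and 3 marker lists (grey points, shifted vertically for visibility), with list medians as black bars and dotted lines at a 2-fold difference. The median of the 10 genes is 0.79, and those of the pathway lists lie between -0.03 and 0.10.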

How the data were processed

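RNA of BMDMs with apoptotic cell supernatant or with medium was labelled with biotin and read on Affymetrix mouse arrays, a single one for each condition. The authors deposited MAS5 signals, linear intensities of probe sets, and the submitters' processing notes name no other tool. The equal trimmed mean (2% removed at each end) shows a single scaling factor per array. The median signal was 49.3 with supernatant and 53.0 with medium. Genome build and detection calls are not given in the sources used here. Conditions came from the labels.

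Probe sets were named from the array's annotation table, which gives 34958 of them a single gene. All 10 members matched the RefSeq table of GRCm38.p6 by gene identifier. Probe sets with several genes were not used. Some listed genes had no single-gene probe set and were not analysed here. Log2 ratios are supernatant over medium. Named beside the members were, per pathway list and direction, up to 4 genes past 2-fold, Mapk8 and Mapk14, and the 2 genes on each side of the highest member. The members and lists were chosen with earlier results of these data known. The steps were tested on simulated data in which only genes far above the floor were given a change. Recovery of a change in dim genes was therefore not tested. Alternatives changed the scaling (median-centring, quantile, loess with a span of 30%), the floor and the choice of probe set. Calculations ran in Python (version 3.11.15) with pandas (2.3.3), numpy (2.4.6), statsmodels (0.14.6) and scipy (1.17.1), and plots were drawn with matplotlib (3.10.9).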

Additional observations from a re-analysis of the deposited data

How the results depend on the processing

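No paired analysis was possible because there was a single array on each side. Under the 10 alternatives Dusp1 (log2 ratio 1.34 to 1.45), Dusp2 (1.02 to 1.22) and Dusp5 (2.85 to 3.23) stayed at least 2-fold higher, and Dusp4 (-0.51 to -0.41) and Dusp6 (-0.63 to -0.52) stayed below 0. Dusp14 ranged from 0.39 to 1.17 and was at least 2-fold higher in 7 of the 9 that measured it. Dusp8 ranged from 0.60 to 0.99, Dusp10 from 0.25 to 0.65, Dusp16 from 0.63 to 0.80 and Dusp3 from -0.02 to 0.25. None of these reached 2-fold, though Dusp8 came close to it. The median log2 ratio of the members, 0.79, was 0.90 after median-centring (where the median of all genes was 0.08, against -0.02 as reported), 0.49 with the floor 2 times as high, 0.64 with the floor as a pseudocount, 0.65 with the mean of all probe sets (9 members measured) and 0.61 without suffixed probe sets (8 measured), a setting in which the class difference of 0.72 was 1.00. The number of members lower, 0, was 1 at 1.5-fold.

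Of the other pathway genes 2 were 2-fold higher. It was 0 with the pseudocount, 0 with a floor of 76.8, and 1 with the mean of all probe sets or with the probe set of highest medium signal. The number lower, 1, was 0 with the floor 2 times as high, 0 with the pseudocount, 6 with the floor at the receptor median (9.6), 2 with the probe set of highest medium signal and 4 at 1.5-fold. Over all named genes 115 were higher and 101 lower. Without a floor these were 369 and 464, at a floor of 9.6 1006 and 1210, and 444 and 535 at 1.5-fold. The number lower was 67 after median-centring, 157 with the mean of all probe sets and 27 with a floor of 76.8. The cause of these shifts was not tested. Dim signals limit Dusp8, Dusp10 and Dusp14.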
